A study of Mus musculus with 10 samples.

Results

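The genes described here mark macrophages, and they were followed in smoke-exposed mouse muscle. They are Csf1r, Ccr2, Adgre1, Mrc1, Cd163, Cd68, Lyz2, C1qa, C1qb and C1qc. The markers were chosen by name, and are 10 of the 49315 gene identifiers in the count table. All 10 had enough counts to be tested, among 14714 genes in all.

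RNA was sequenced from the gastrocnemius, a calf muscle, of 10 male mice on a C57BL6J background, with 1 library per mouse. The 5 AHRfl mice carried floxed alleles of Ahr and lacked Cre. The protein made from Ahr, AHR, switches genes on after binding aryl hydrocarbons, among them compounds of tobacco smoke. The 5 AHRmKO mice carried the same alleles with a tamoxifen-inducible Cre under the human ACTA1 promoter, so that the deletion was directed to myofibres and not to macrophages. All 10 mice inhaled cigarette smoke for 16 weeks, on 5 days per week and in 2 sessions of 1 h per day, at 220 ± 80 mg/m3, and by the labels muscle was taken 72 h after the last exposure, where the study's text also gives a range that starts earlier. Smoke began 4 weeks after the last tamoxifen injection by the labels, while the study's methods also give a shorter interval. The labels give no age, and no air-exposed mice were among the libraries.

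Macrophages of skeletal muscle lie between the fibres and around vessels, where they take up debris and, after injury, help the fibres to regenerate. A resident population is kept by signals through the CSF1 receptor, while blood monocytes that carry CCR2 follow chemokines into tissue and can become macrophages there. Complement C1q, the recognition protein that starts the classical complement pathway, is made in large part by tissue macrophages, and its A, B and C chains are assembled into a single protein.

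Total counts per mouse were between 30393035 and 37954388, and 3 counts, taken as the floor of detection, correspond to between 0.079 and 0.0987 CPM, counts relative to library size. Ahr was not lower beyond the spread of the mice, with 43 to 110 counts in AHRfl and 31 to 80 in AHRmKO muscle (log2 fold change -0.35, adjusted p = 0.844, edgeR). It was -0.13 without AHRfl 11 and -0.21 without AHRmKO 34. These counts sum all exons of the gene, so they do not measure the deleted part alone. Although the mice are labelled male and each of 4 Y-linked genes had at least 282 counts in every library, 5 libraries (3 AHRfl and 2 AHRmKO) also held 44 to 75 counts of Xist, an RNA of the female inactive X chromosome, against at most 3 in the other 5. The part of this difference in the results below was not tested beyond a fit with Xist as a covariate, which changed no direction and added no call among the 10 markers. It moved 7 log2 fold changes by over 1.5 times, to 0.26 for Cd68, 0.22 for Csf1r, -0.05 for Lyz2, 0.26 for Cd163, 0.15 for C1qa, 0.15 for C1qb and 0.18 for C1qc (edgeR, lowest adjusted p = 0.771).

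The 3 C1q genes lie side by side on the minus strand of chromosome 4 (GRCm38), within 18675 bp from 136880129 to 136898803. C1qa runs from 136895917 to 136898803, C1qc from 136889804 to 136893065 and C1qb from 136880129 to 136886187, each with 3 exon blocks. The other markers are scattered over the genome. Cd68 is on chromosome 11 (69664213 to 69666153), Adgre1 on chromosome 17 (57358691 to 57483527), Mrc1 on chromosome 2 (14229392 to 14332057), Lyz2 on chromosome 10 (117277331 to 117282321), Cd163 on chromosome 6 (124304656 to 124330527) and Ccr2 on chromosome 9 (124101950 to 124113557). Exons of Csf1r share 873 nt with exons of Hmgxb3 on the opposite strand. Since the sources do not state whether strand was used in counting, reads of these 2 genes may be mixed or left uncounted there. Hmgxb3 was between 12.5 and 17.5 CPM over the 10 mice.

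No promoter window of Csf1r, Adgre1 or C1qa was examined. For the other 7 of the 10 markers, windows of 300 bases (250 before and 50 after the start) were taken from RefSeq on GRCm38.p6. The start used for these windows need not be the end of the gene span given above. For C1qc, Ccr2, Mrc1 and Lyz2 it lies inside that span. Below are the windows of C1qb and C1qc, shown because these genes followed each other closely from mouse to mouse, and of Ccr2, shown because none of its relations with the other markers passed the test. They are chr4:136886151-136886450 on the minus strand, chr4:136892865-136893164 on the minus strand and chr9:124101933-124102232 on the plus strand. Capitals mark the letters GAGGAA, or TTCCTC where they lie on the other strand, which form the core recognised by PU.1, the master regulator of myeloid genes.

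C1qb: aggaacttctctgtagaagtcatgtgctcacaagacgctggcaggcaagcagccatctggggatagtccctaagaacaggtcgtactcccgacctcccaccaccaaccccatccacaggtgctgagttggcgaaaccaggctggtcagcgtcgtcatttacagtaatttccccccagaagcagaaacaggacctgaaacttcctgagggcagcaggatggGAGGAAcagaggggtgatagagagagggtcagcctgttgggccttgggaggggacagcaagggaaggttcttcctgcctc

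C1qc: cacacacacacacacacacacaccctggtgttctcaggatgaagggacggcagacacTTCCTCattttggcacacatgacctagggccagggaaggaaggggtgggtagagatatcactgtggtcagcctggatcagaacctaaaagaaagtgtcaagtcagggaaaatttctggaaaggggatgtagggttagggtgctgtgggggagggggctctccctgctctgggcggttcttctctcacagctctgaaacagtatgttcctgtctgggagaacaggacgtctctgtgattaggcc

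Ccr2: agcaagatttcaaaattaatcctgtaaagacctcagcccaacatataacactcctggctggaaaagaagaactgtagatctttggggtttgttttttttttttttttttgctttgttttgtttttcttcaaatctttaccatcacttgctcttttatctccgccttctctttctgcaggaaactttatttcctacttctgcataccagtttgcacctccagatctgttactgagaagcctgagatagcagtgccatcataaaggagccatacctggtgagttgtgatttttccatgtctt

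Counted from the start used for each window, the core stood 30 bases before it in C1qb and 193 before it in C1qc. These letters were absent from the Ccr2 window, most of which lies inside the gene span given above. Over both strands, 4 of the 7 windows held the core (C1qb, C1qc, Cd68 and Mrc1, the last with 3 matches), against 28.3% of all 32851 windows of the same length. The AHR core GCGTG was in 0 of the 7 windows and in 32.4% of all windows. The letters TGANTCA, bound by AP-1, were in the Cd68 window alone (7.81% of all windows), as were TTNNGCAA, bound by C/EBP factors (10.8%), while TATAAA was in 0 of 7 (13.6%). No match overlapped one of another motif, and a match of letters describes the sequence only.

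Levels were compared between the markers in TPM, a unit that divides the counts by exon length and scales each library to the same sum. Lyz2, the lysozyme of myeloid cells, stood highest with 41.1 ± 9.91 TPM (SD, n = 10 mice), followed by C1qa with 16.1 ± 5.14, C1qb with 11.9 ± 2.85 and C1qc with 7.23 ± 2.22. Each of these exceeded the next in 10 of 10 mice, and the lowest C1qc value lay above the highest value of Cd68. Then came Cd68, a lysosomal glycoprotein, with 2.71 ± 0.742 TPM, Cd163, the haemoglobin scavenger receptor, with 2.23 ± 0.613, and Csf1r with 2.10 ± 0.630. These 3 neighbours did not differ beyond their spread, since Cd68 exceeded Cd163 in 7 of 10 mice and Cd163 exceeded Csf1r in 8. At the low end were Mrc1, the mannose receptor, with 1.44 ± 0.343 TPM, Adgre1, which encodes the F4/80 antigen, with 0.727 ± 0.385, and Ccr2 with 0.315 ± 0.189. Mrc1 exceeded Adgre1 in 10 mice and Adgre1 exceeded Ccr2 in 9. For scale, Acta1, the actin of skeletal muscle fibres, stood at 39654 TPM on average. In whole muscle, fewer macrophages and less RNA per macrophage cannot be told apart.

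None of the 10 markers differed between AHRmKO and AHRfl muscle beyond the spread of the mice. With edgeR's quasi-likelihood test, 0 of 10 had an adjusted p under 0.05, where 0.00680% of all tested genes (1 gene) did, and 0 of 10 had an unadjusted p under 0.05, where 6.61% did. The 1 gene was Esr1, which encodes an oestrogen receptor from which the inducible Cre borrows its hormone-binding part (log2 fold change 4.44, adjusted p = 0.000433). The groups overlapped for all 10 markers, and were free of overlap for 1.40% of all genes. DESeq2 called 0 of the 7 markers to which it gave an adjusted p (lowest 0.941), none of the 10 had an unadjusted p under 0.05 there, and it called 0.193% of the 10858 genes with an adjusted p (21 genes), while limma-voom called 0 of 10. In the fit, 7 markers lay above and 3 below zero, with a median log2 fold change of 0.09, beside 0.01 for all genes tested. This tally turned on single mice: 3 lay above and 7 below zero without AHRmKO 22 (median -0.11), 4 and 6 without AHRfl 13 (median -0.01), 5 and 5 without AHRfl 12 (median 0.02), and 9 and 1 without AHRmKO 9 (median 0.23).

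**Figure D1:**
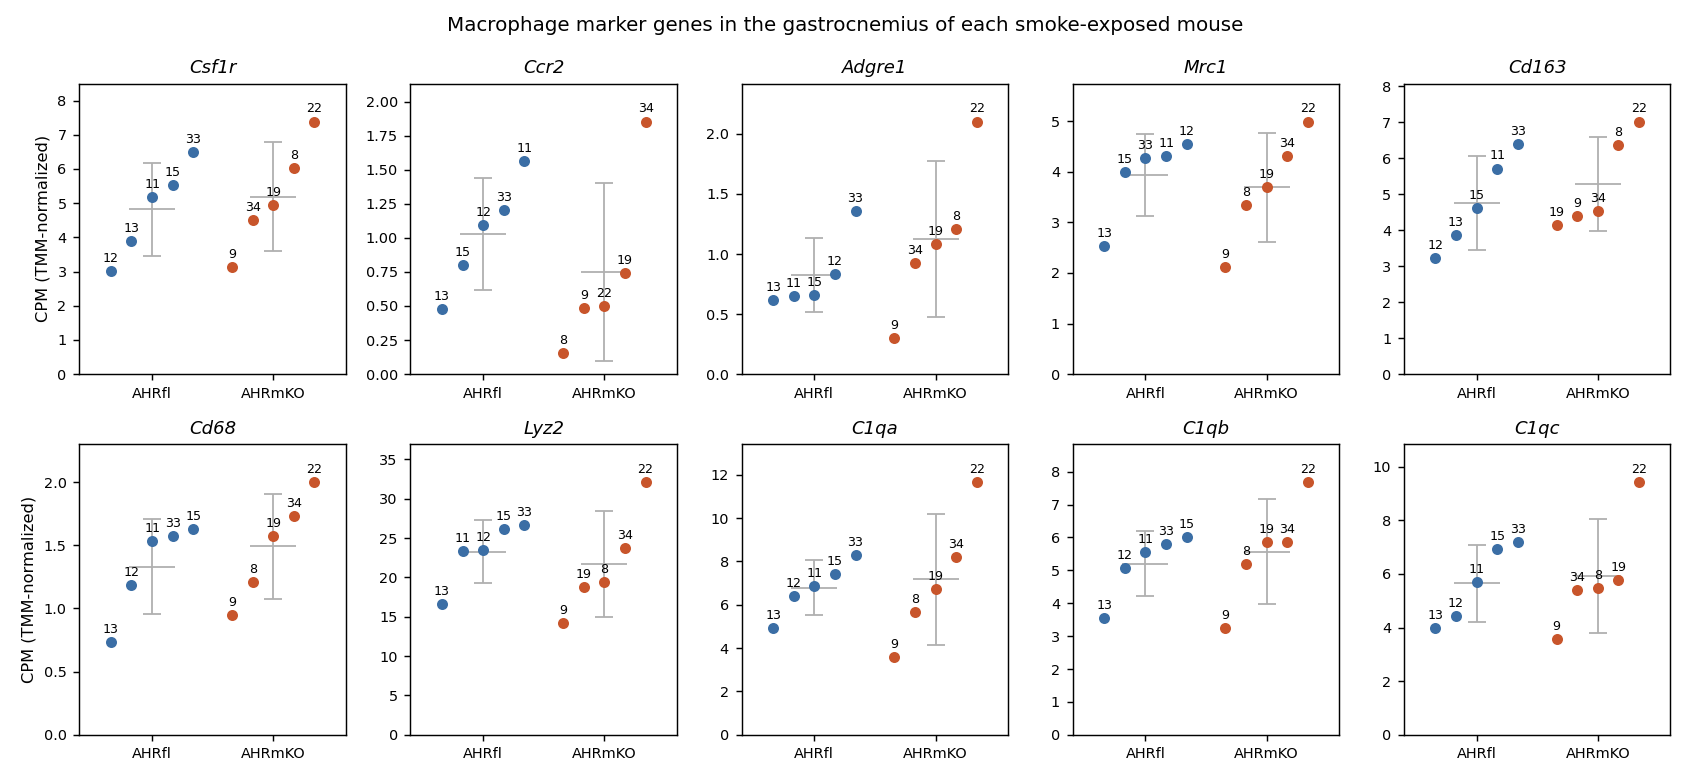
CPM (TMM-normalized, y axis from 0) of each marker in each of the 5 AHRfl (blue) and 5 AHRmKO (orange) mice, labelled by animal number, with grey bars for the mean and SD. The groups overlap in every panel, and AHRmKO 22 is the highest point in every panel but that of Ccr2.

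The receptor through which the growth factors CSF1 and IL-34 keep macrophages alive, Csf1r, had 5.17, 3.03, 3.89, 5.52 and 6.49 CPM in AHRfl mice 11, 12, 13, 15 and 33. In AHRmKO mice 8, 9, 19, 22 and 34 it had 6.01, 3.12, 4.94, 7.39 and 4.52 CPM. Both groups thus held 1 mouse near 3 CPM and spread upward from there, with means of 4.82 ± 1.37 and 5.20 ± 1.61 CPM (SD, n = 5 each). The log2 fold change was 0.11 (SE 0.241, 95% interval -0.41 to 0.63, adjusted p = 0.961, edgeR).

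Its ligands are made by other cells of the muscle, and they are named here for their role, with their values already known. Csf1 was between 5.33 and 8.93 CPM in AHRfl and between 5.10 and 8.10 CPM in AHRmKO mice, and Il34 was between 3.33 and 4.43 and between 2.54 and 3.89 CPM. Of 12 listed genes of the CSF1 axis and of myeloid regulation, 11 were tested and 0 were called, 1 being above and 10 below zero, with a median log2 fold change of -0.12. The lowest unadjusted p in that list was 0.0994, for Irf8, a factor of monocyte development. Trem2 had too few counts to be tested.

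Ccr2, the chemokine receptor of inflammatory monocytes, was the least abundant marker and the most uneven. It had 55, 38, 17, 28 and 39 counts in AHRfl mice 11, 12, 13, 15 and 33, which is 1.56, 1.096, 0.480, 0.801 and 1.21 CPM. AHRmKO mice 8, 9, 19, 22 and 34 had 6, 18, 26, 19 and 62 counts, which is 0.158, 0.488, 0.742, 0.4996 and 1.85 CPM. The AHRmKO group therefore held both the lowest and the highest of the 10 mice, 11.8-fold apart, and 4 of its 5 mice lay below 4 of the 5 AHRfl mice. For the 6 counts of AHRmKO 8 the exact 95% Poisson interval was 2.20 to 13.1 counts, and for the 62 counts of AHRmKO 34 it was 47.5 to 79.5, intervals that cover counting error and not the spread between mice. The log2 fold change was -0.47 (SE 0.513, 95% interval -1.59 to 0.65, adjusted p = 0.906, edgeR), and the exact permutation test gave p = 0.286. Single mice moved it in both directions. Without AHRmKO 34 the log2 fold change was -1.13 with an unadjusted p of 0.0178 (edgeR), without AHRmKO 8 it was -0.21 (unadjusted p = 0.643) and without AHRfl 11 it was -0.27 (unadjusted p = 0.635), and the lowest adjusted p that Ccr2 reached under any alternative was 0.583.

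The list of monocyte genes and CCR2 ligands was mostly below the limit of testing, with 6 of 14 genes tested and 0 called. Ccl2, a main ligand of CCR2 and named here after its values were seen, was also highest in AHRmKO 34 (2.15 CPM) and ranged down to 0.143 CPM in AHRfl 15. Plac8, a gene of monocytes and granulocytes, was at 1.03 ± 0.292 CPM in AHRfl and 0.665 ± 0.205 in AHRmKO mice (SD, n = 5 each; log2 fold change -0.64, unadjusted p = 0.0364, adjusted p = 0.720, edgeR). It was the only gene of that list with an unadjusted p under 0.05. Neutrophils could also be in the tissue, and the summed level of their markers was between 3.07 and 6.09 CPM in AHRfl and between 1.18 and 4.93 in AHRmKO mice, with the lowest value in AHRmKO 8, and 5 of the 8, among them the defining Ly6g, had too few counts to be tested.

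Among surface markers, Adgre1 showed the widest interval after Ccr2. AHRfl mice 11, 12, 13, 15 and 33 had 0.654, 0.836, 0.621, 0.658 and 1.36 CPM. AHRmKO mice 8, 9, 19, 22 and 34 had 1.21, 0.298, 1.08, 2.10 and 0.927 CPM. Thus 4 of 5 AHRmKO mice exceeded 4 of 5 AHRfl mice, while AHRmKO 9 was the lowest of all, and the log2 fold change was 0.45 (SE 0.404, 95% interval -0.42 to 1.32, adjusted p = 0.879, edgeR). Without AHRmKO 22 it was 0.09, without AHRfl 33 it was 0.70 (unadjusted p = 0.118, edgeR) and without AHRmKO 9 it was 0.70 (unadjusted p = 0.0489, adjusted p = 0.893, edgeR).

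The scavenger receptors Mrc1 and Cd163, often used to mark resident macrophages, differed little between genotypes. Mrc1 had 4.32, 4.56, 2.54, 4.005 and 4.27 CPM in AHRfl mice 11, 12, 13, 15 and 33, and 3.34, 2.12, 3.71, 5.00 and 4.31 CPM in AHRmKO mice 8, 9, 19, 22 and 34. The lowest mouse of each group, AHRfl 13 and AHRmKO 9, lay below the other 4, which were closer together in AHRfl than in AHRmKO mice (log2 fold change -0.09, SE 0.217, adjusted p = 0.964, edgeR). Cd163 had 5.71, 3.23, 3.86, 4.61 and 6.398 CPM in the same AHRfl mice and 6.36, 4.40, 4.14, 7.02 and 4.55 CPM in the AHRmKO mice. For Cd163 the groups overlapped, with AHRfl 12 and AHRfl 13 below every AHRmKO mouse and AHRmKO 22 above every AHRfl mouse (log2 fold change 0.15, SE 0.205, adjusted p = 0.928, edgeR). In a list of 14 further genes of resident macrophages, 10 were tested, 7 of them above and 3 below zero, and 0 were called. The list's highest gene by TPM was Cbr2, and its summed level was between 152 and 174 CPM in AHRfl and between 148 and 186 CPM in AHRmKO mice.

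Lysosomal Cd68 had 1.54, 1.18, 0.733, 1.63 and 1.58 CPM in AHRfl mice 11, 12, 13, 15 and 33, and 1.21, 0.950, 1.57, 2.00 and 1.73 CPM in AHRmKO mice 8, 9, 19, 22 and 34. For Lyz2, the most abundant marker, the values were 23.4, 23.5, 16.7, 26.1 and 26.6 CPM in AHRfl and 19.5, 14.2, 18.8, 32.1 and 23.8 CPM in AHRmKO mice. The lowest mouse of each group was the same for both genes, AHRfl 13 and AHRmKO 9. Cd68 had a log2 fold change of 0.16 (SE 0.258, adjusted p = 0.940, edgeR) and Lyz2 one of -0.10 (SE 0.203, 95% interval -0.55 to 0.35, adjusted p = 0.957, edgeR). Lyz1, the near-identical neighbour of Lyz2 that could share reads with it, stood far lower, between 0.495 and 1.37 CPM over the 10 mice. Of 19 further genes found across myeloid cells, 18 were tested and 0 were called, 5 above and 13 below zero.

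**Figure D2:**
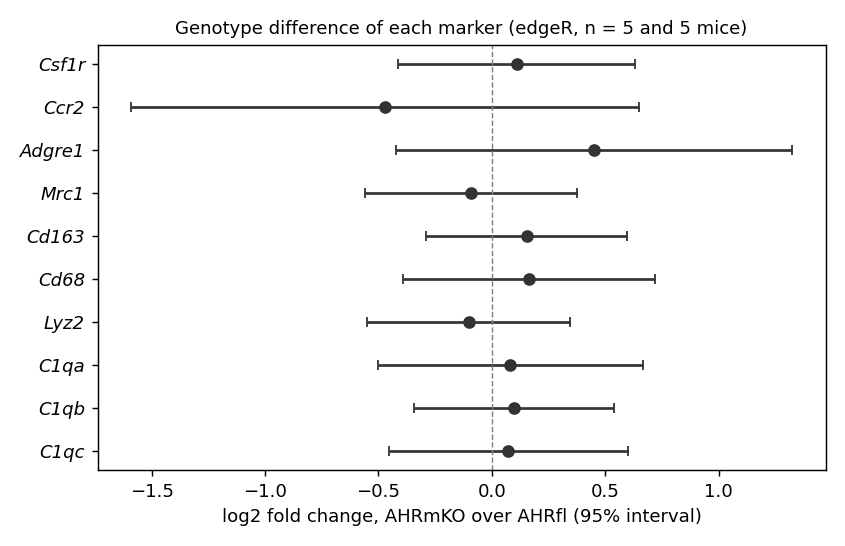
Log2 fold change of AHRmKO over AHRfl muscle for each marker (points) with 95% intervals (bars) from edgeR, 5 mice per group. Every interval spans zero, and those of Ccr2 (-1.59 to 0.65) and Adgre1 (-0.42 to 1.32) are the widest.

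The 3 chains of C1q gave the most uniform picture. C1qa had 6.85, 6.402, 4.91, 7.44 and 8.31 CPM in AHRfl mice 11, 12, 13, 15 and 33, and 5.65, 3.58, 6.74, 11.6 and 8.22 CPM in AHRmKO mice 8, 9, 19, 22 and 34. C1qb had 5.57, 5.08, 3.55, 6.01 and 5.81 CPM, and 5.20, 3.26, 5.85, 7.68 and 5.86 CPM, in the same order. C1qc had 5.69, 4.44, 3.98, 6.92 and 7.20 CPM, and 5.49, 3.58, 5.76, 9.41 and 5.41 CPM. In all 3 genes AHRmKO 22 was the highest and AHRmKO 9 the lowest of the 10 mice, and the AHRfl mice fell between them. The log2 fold changes were 0.08 (95% interval -0.50 to 0.66) for C1qa, 0.10 (-0.34 to 0.54) for C1qb and 0.07 (-0.45 to 0.60) for C1qc. Their adjusted p were 0.979, 0.957 and 0.979 (edgeR). Single mice turned these directions, with -0.168, -0.048 and -0.159 without AHRmKO 22. Without AHRmKO 9 the values were 0.252, 0.242 and 0.210, in the same order.

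The make-up of C1q transcripts was far steadier than their amount. Of the summed TPM of the 3 chains, C1qa took 45.4 ± 2.68%, C1qb 34.1 ± 2.15% and C1qc 20.5 ± 1.78% (SD, n = 10 mice). In CPM, the level of C1qa itself varied 3.25-fold between the highest and the lowest mouse. These shares did not differ between genotypes beyond the spread (two-sided exact permutation tests, unadjusted p = 0.556, 0.508 and 0.881). Of 18 further complement genes, 16 were tested and 0 were called, 8 above and 8 below zero. The one with an unadjusted p under 0.05 was C7, a chain of the membrane attack complex, at 6.19 ± 1.22 CPM in AHRfl and 9.01 ± 3.15 in AHRmKO mice (SD, n = 5 each; log2 fold change 0.54, unadjusted p = 0.0286, adjusted p = 0.697, edgeR). Without AHRmKO 22, its log2 fold change was 0.32.

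No gene of antigen presentation or of the listed secreted products was called by edgeR. Of 7 MHC class II genes, 6 lay below and 1 above zero, and the lowest unadjusted p was that of H2-Ab1, a chain of the class II molecule, at 14.0 ± 3.14 CPM in AHRfl and 10.6 ± 2.22 in AHRmKO mice (SD, n = 5 each; log2 fold change -0.40, unadjusted p = 0.0426, adjusted p = 0.737, edgeR). Among 12 listed macrophage products, 6 were tested and the others had too few counts. Spp1, which encodes osteopontin, was at 2.66 ± 0.421 CPM in AHRfl and 1.53 ± 0.686 in AHRmKO mice (SD, n = 5 each; log2 fold change -0.79, unadjusted p = 0.0124, adjusted p = 0.665, edgeR). Igf1, a growth factor that myofibres and stromal cells also express, was at 14.1 ± 2.62 and 11.03 ± 1.01 CPM (SD, n = 5 each; log2 fold change -0.35, unadjusted p = 0.0132, adjusted p = 0.665, edgeR). The groups overlapped for both genes.

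Single mice differed more than the genotypes did. AHRmKO 22 was the highest of the 10 mice for 9 of the 10 markers, while it was the highest for 8.83% of all tested genes. AHRmKO 9 was the lowest for 6 markers (Adgre1, Mrc1, Lyz2, C1qa, C1qb and C1qc), against 7.73% of all tested genes. The summed level of the 10 markers ran from 36.0 CPM in AHRmKO 9 to 84.8 CPM in AHRmKO 22, and the AHRfl mice lay within that range, from 41.2 CPM in AHRfl 13 to 69.2 CPM in AHRfl 33. AHRmKO 9 and AHRfl 13 were below the mean of the 10 mice for 10 of 10 markers, and AHRfl 33 was above it for 10 of 10. Mean deviations over the markers, on the log2 scale, were between -0.49 and 0.36 in AHRfl and between -0.68 and 0.54 in AHRmKO mice.

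**Figure D3:**
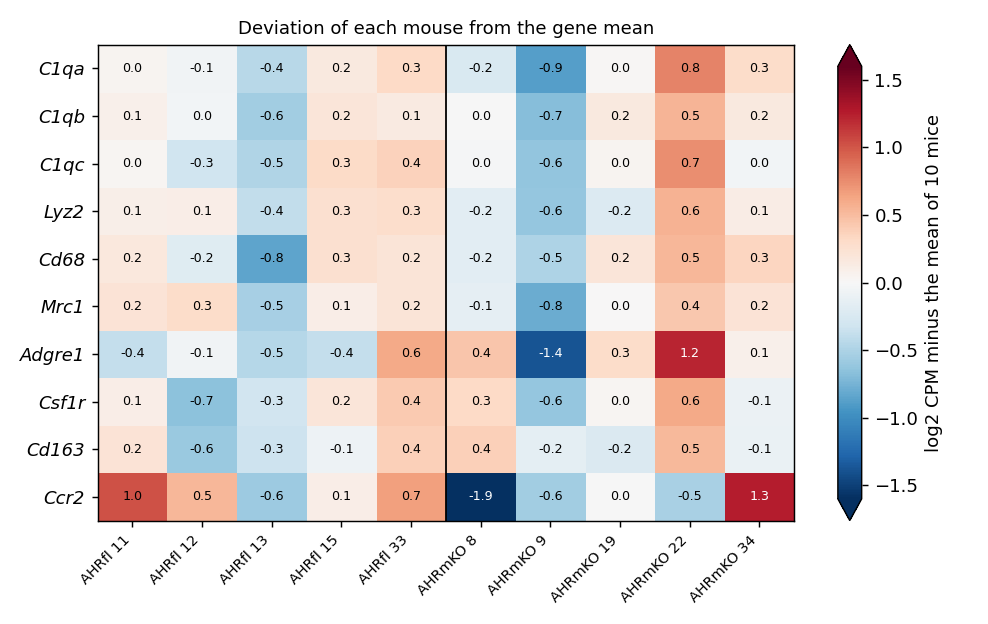
Deviation of each mouse (columns; AHRfl left of the line, AHRmKO right) from the mean log2 CPM of 10 mice for each marker (rows), with red above and blue below the mean and colours saturating at the ends of the scale. AHRmKO 9 and AHRfl 13 are below the mean in every row and AHRfl 33 above it, while Ccr2 departs from the other rows in AHRmKO 8, 22 and 34.

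The spread between mice was larger than is usual for genes of the same abundance. The coefficient of variation of CPM over the 10 mice was between 23.4% (C1qb) and 31.5% (C1qa) for 8 markers, 51.8% for Adgre1 and 60.2% for Ccr2. edgeR's estimate of the biological variation of each gene exceeded the trend for its abundance in 10 of 10 markers, against 26.05% of all tested genes, and the median ratio to the trend was 1.38 for the markers and 0.817 for all genes. For C1qa the biological coefficient of variation was 29.1% where the trend was 17.7%, and for Lyz2 22.6% where the trend was 14.1%. Only Cd68, at 26.2% against 26.1%, lay on the trend.

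The markers varied together from mouse to mouse, and Ccr2 followed the others least. Over the 10 mice, Pearson's r of log2 CPM was positive in 36 of 36 pairs of the 9 other markers, from 0.306 to 0.946 with a median of 0.807, and 26 of these pairs had an adjusted p under 0.05 (100000 permutations, Benjamini-Hochberg over 45 pairs), against 13 by Spearman's rho. The 9 pairs with Ccr2 ran from -0.22 to 0.490 with a median of 0.266, and none passed an adjusted p of 0.05 by either measure (0 of 9). Median rho was 0.685 for the 36 pairs and 0.382 for the 9, where Mrc1 gave the highest, 0.612 (permutation adjusted p = 0.0983). Ccr2 had 6 to 62 counts per mouse, and the part of counting error in its relations was not tested. The markers share each mouse's library and tissue piece, and the median r over all pairs of tested genes was -0.0008. After each genotype's mean was removed, the median r was 0.812 for the 36 pairs and 0.331 for the 9. Without the 2 mice farthest from the median of 1 marker of the pair, the median r was 0.603 and 0.204. By this measure 36 of the 36 stayed positive, the lowest being 0.0104. The mice left out differed from pair to pair, and AHRmKO 22 was among them in only some pairs. Of the 9 pairs with Ccr2, 6 were positive, and 5 without the 2 farthest mice. Among these pairs, r of Ccr2 with C1qa went from 0.359 to 0.713 without AHRmKO 9 and AHRmKO 22.

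**Figure D4:**
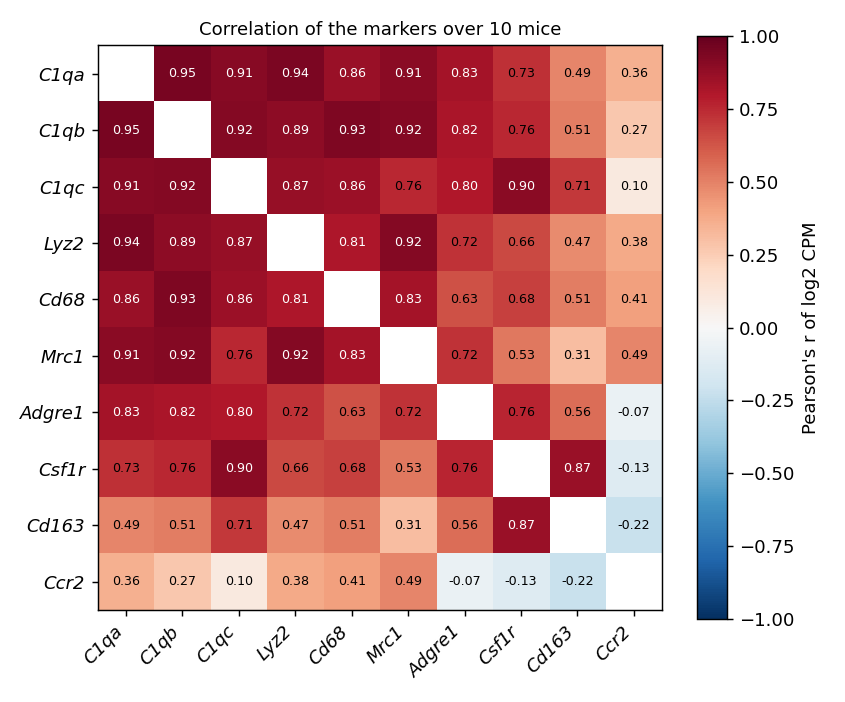
Pearson's r of log2 CPM over the 10 mice for each pair of markers, with red for positive and blue for negative values. The block of C1qa, C1qb, C1qc, Lyz2, Cd68 and Mrc1 holds values of 0.757 and above, Csf1r and Cd163 pair at 0.867, and the Ccr2 row stays at or below 0.490.

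The closest pair was C1qa with C1qb (r = 0.946, permutation p = 5e-05, adjusted p = 0.0009; rho = 0.879, adjusted p = 0.0126), and r was 0.847 without AHRmKO 9 and AHRmKO 22. Lyz2 followed C1qa as closely (r = 0.945, permutation adjusted p = 0.0009; rho = 0.927, adjusted p = 0.00439), with r = 0.862 without AHRfl 13 and AHRmKO 9. Cd68 followed C1qb (r = 0.935, permutation adjusted p = 0.0009; rho = 0.964, adjusted p = 0.0027). A lysosomal protein, a lysozyme and the C1q chains thus rose and fell together over these mice.

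The closest partner of Cd163 among the markers was Csf1r, with r = 0.867 (permutation p = 0.00136, adjusted p = 0.00453; rho = 0.927, adjusted p = 0.00439) and r = 0.895 without AHRfl 12 and AHRmKO 9. Both were lowest in AHRfl 12, a mouse above the mean for Mrc1 and Lyz2. Cd163 with Mrc1, the other scavenger receptor, gave r = 0.306 (permutation p = 0.390). Adgre1 followed C1qa with r = 0.832 (permutation adjusted p = 0.0127; rho = 0.685, adjusted p = 0.0823), which fell to 0.329 without AHRmKO 9 and AHRmKO 22, so that this relation rested on those 2 mice. Against the mean of the other markers, r was 0.961 for C1qa, 0.958 for C1qb, 0.938 for C1qc, 0.774 for Csf1r, 0.550 for Cd163 and 0.198 for Ccr2.

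Ccr2 had its extremes in other mice than the rest. It was lowest in AHRmKO 8, which had the second highest AHRmKO levels of Csf1r and Cd163, and highest in AHRmKO 34, where the other markers were closer to their means. In AHRmKO 22 it was below its mean while the other 9 markers were at their highest. The ratio of Ccr2 to Cd163, in CPM, ran from 0.0248 in AHRmKO 8 to 0.408 in AHRmKO 34 and from 0.124 to 0.339 in AHRfl mice (two-sided exact permutation test between genotypes, p = 0.452).

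Outside the 10 markers, the 5 genes most like their mean over the 10 mice were Ccl11 (r = 0.946), Lrrc25 (r = 0.943), Pf4 (r = 0.910), Mfap5 (r = 0.887) and F13a1 (r = 0.876). They were picked for this likeness out of all tested genes, so the values are a description with no test. Ccl11 encodes eotaxin, a chemokine that attracts eosinophils, and ran from 8.08 to 16.4 CPM. Pf4 encodes a chemokine of platelets that macrophages also express, and ran from 1.19 to 4.60 CPM, while F13a1, a clotting factor subunit found in macrophages, ran from 3.30 to 6.84 CPM. Mfap5 belongs to the microfibrils made by fibroblasts. AHRmKO 22 was the highest mouse for 4 of the 5 and AHRfl 33 for Mfap5.

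Markers of other cell types were read beside these results. The 10 markers were related to the summed level of 12 lists, from neutrophils to myofibres, and 0 of the 120 relations had an adjusted p under 0.05 (permutation tests). The strongest were Cd163 with the 5 dendritic cell genes (r = 0.843, permutation p = 0.0039, adjusted p = 0.167) and Adgre1 with the 5 mast cell genes (r = 0.843, permutation p = 0.00314, adjusted p = 0.167). Zbtb46 made up much of the dendritic sum, with 4.52 of 6.04 CPM in AHRmKO 34, the lowest mouse for both. Both were highest in AHRmKO 8, as were Cdh5 and the summed endothelial genes. Flt3 and Xcr1 of the dendritic list had too few counts to be tested. The part of Zbtb46 alone in the relation with Cd163 was not tested. The median r was highest for the mast cell genes, at 0.658, followed by the fibroblast genes at 0.600, each with 9 of 10 positive. It was lowest for the adipocyte genes, at -0.396, and the Schwann cell genes, at -0.348, each with 1 of 10 positive. Among the fibroblast relations C1qc gave the highest (r = 0.793, permutation adjusted p = 0.167; rho = 0.770, adjusted p = 0.430; r = 0.628 without AHRfl 13 and AHRmKO 22). The summed level of the 6 fibroblast genes was lowest in AHRfl 13 and highest in AHRmKO 22, between 259 and 449 CPM in AHRfl and between 263 and 484 CPM in AHRmKO mice. Ccr2 with the neutrophil genes gave r = 0.701 (permutation adjusted p = 0.306; rho = 0.491, adjusted p = 0.596), and 0.063 without AHRmKO 8 and AHRmKO 9. Ccr2 with the erythroid genes gave r = -0.701 (permutation adjusted p = 0.306; rho = -0.697, adjusted p = 0.449), and -0.707 without AHRmKO 8 and AHRmKO 19. No gene of the 12 lists was called or had an unadjusted p under 0.05 between genotypes (edgeR). The highest gene of a list reached 6.54 TPM for S100a9 of neutrophils, 0.797 for Cd3e of T cells, 4.57 for Jchain of B lineage cells, 1.90 for Mcpt4 of mast cells, 1.78 for Zbtb46 of dendritic cells and 88.6 for Dcn of fibroblasts. In further lists it was 28.8 TPM for Cdh5 of endothelium, 346 for the globin Hbb-bs, 4.76 for Adipoq of adipocytes and 1.38 for Myf5 of satellite cells. The part of these cell types in the marker levels was not tested.

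The libraries also differed widely in slow myosin, and Csf1r followed it. Myh7, the myosin heavy chain of slow fibres, ran from 3.32 CPM in AHRfl 12 to 631 CPM in AHRmKO 8, overlapped between genotypes, and was examined with Myh1, Myh2 and Myh4 after the values were seen. Csf1r followed Myh7 with r = 0.893 (permutation p = 0.00053, adjusted p = 0.0212 over 40 relations; rho = 0.867, adjusted p = 0.0442), r = 0.788 without AHRfl 12 and AHRmKO 9, and 0.899 after removing each genotype's mean. It ran against Myh4, the myosin of the fastest fibres, with rho = -0.88 (permutation adjusted p = 0.0442) and r = -0.76 (adjusted p = 0.117). No other relation among the 40 had an adjusted p under 0.05, and the part of fibre composition in the Csf1r level was not tested. The median r with Myh7 over the 10 markers was 0.642, with Ccr2 the one on the other side at -0.31.

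**Figure D5:**
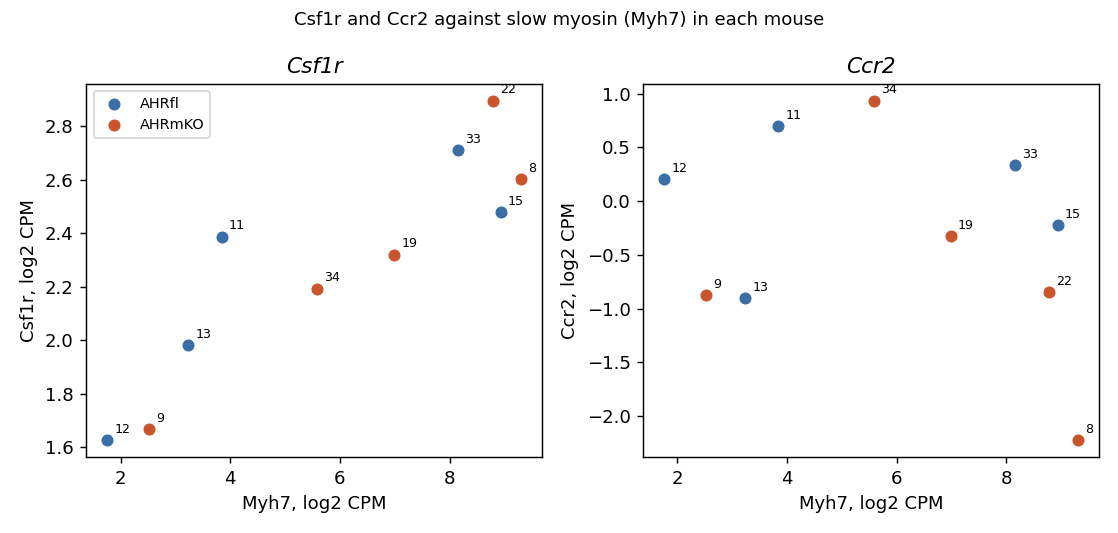
Log2 CPM of Csf1r (left) and Ccr2 (right) against log2 CPM of Myh7 in each AHRfl (blue) and AHRmKO (orange) mouse, labelled by animal number. Csf1r rises with Myh7 over both genotypes (r = 0.893), while Ccr2 does not (r = -0.31).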

How the data were processed

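By the submitters' processing notes and the study's methods, reads were trimmed (Trimmomatic 0.36), aligned to GRCm38 (STAR 2.5.2b) and assigned to genes by featureCounts when unique and exonic. The authors deposited raw counts, 1 column per mouse, neither normalized nor pooled. The annotation release and the use of strand are not given in the sources used here. Gene positions and exon lengths came from GENCODE M21, which holds 49056 of 49315 identifiers.

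The markers and gene lists were chosen with earlier results of these data known. Counts were filtered with filterByExpr (minimum count 10, minimum total 15), normalized by TMM and compared by the robust quasi-likelihood test of edgeR 4.0.16 (R 4.3.3), with p-values adjusted by Benjamini-Hochberg over 14714 genes at a threshold of 0.05. Log2 CPM used a prior count of 2. Single values were compared by two-sided exact permutation over the 252 ways to assign 5 and 5 mice (smallest possible p 0.00794), and relations by 100000 permutations (scipy 1.17.1). The study describes the AHRfl mice as littermates of the AHRmKO mice, so litters may be shared between the groups. The labels name no litter, the fits treat the mice as independent, and p-values measure the spread between these mice. Intervals of fold changes include the variation between mice, while Poisson intervals and floors cover counting error only. No 2 libraries were identical (0 of 45 pairs). The fit was tested on simulated data.

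Genes named were the markers, Ahr, up to 3 genes per list with the smallest unadjusted p under 0.05, genes whose groups did not overlap, the 5 genes most like the markers' mean and each cell type list's highest gene. Any other gene, such as Irf8, Cbr2 and Lyz1, was named after its values were seen. One gene that this rule names is not reported here. Alternatives were DESeq2 1.42.0, limma-voom (limma 3.58.1), DESeq2's size factors, library size alone, no filter, at least 10 counts in every mouse, no robust estimation, a threshold of 0.1, leaving out each mouse, and, chosen after seeing the data, Xist as a covariate.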

Additional observations from a re-analysis of the deposited data

Results flagged for a closer look

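AHRfl 13 stood apart from the other 4 AHRfl mice for 2 of the markers. Gaps were measured on log2 CPM. For Mrc1, at 1.38 against 2.02 to 2.21 log2 CPM, its gap to the nearest mouse was 0.779 of the group's range. For Lyz2, at 4.06 against 4.55 to 4.74 log2 CPM, the gap was 0.722 of the range. On this scale both exceed Dixon's 95% critical value for 5 samples, 0.71, and these 2 values of 1 mouse were the ones found in 66 groups tested, 20 of them groups of the markers. On linear CPM, Mrc1 would still exceed that value and Lyz2 would not. Chance gives about 1 in 20 groups.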

How the results depend on the processing

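No marker was called under any of 19 alternatives, of which 10 left out 1 mouse each. The number of genes called among all genes was 1, and became 21 with DESeq2, 5 with no filter and 1 to 6 without single mice, the 6 arising without AHRmKO 34; it was 1 under the others. Of 179 values of the markers under alternatives, 12 in 6 markers changed sign, all of log2 fold changes near 0, and 167 kept their direction. Without single mice, Csf1r ran from -0.054 to 0.247, Mrc1 from -0.228 to 0.056, Lyz2 from -0.288 to 0.018, C1qa from -0.168 to 0.252, C1qb from -0.048 to 0.242 and C1qc from -0.159 to 0.210, with the lower end of each without AHRmKO 22 and the upper end without AHRmKO 9. With limma-voom, C1qa was at -0.0030 and Pf4 at -0.056, while Ccr2 moved to -0.79 and Adgre1 to 0.28 with their directions kept. With Xist as a covariate, chosen after seeing the data, Lrrc25 was at 0.072, Mfap5 at 0.0050 and Dcn at 0.049. Among other named genes, those that changed sign without single mice were Lrrc25 (-0.392 to 0.151), Pf4 (-0.201 to 0.254), Mfap5 (-0.168 to 0.075), Zbtb46 (-0.083 to 0.174), Dcn (-0.213 to 0.056), Cdh5 (-0.013 to 0.241), Adipoq (-0.082 to 1.22) and Myf5 (-0.119 to 0.086). For each of these sign changes the cause was not tested.

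Ccr2 ran from -1.13 to -0.21, Adgre1 from 0.092 to 0.700, Cd68 from 0.0093 to 0.291 and Cd163 from 0.029 to 0.282 without single mice. With at least 10 counts in every mouse, Ccr2, Lrrc25, S100a9 and Mcpt4 could not be fitted. No paired analysis was possible because the labels name no litter and no animal number occurs in both groups. Depth limits Ccr2 and Adgre1 most, with as few as 6 and 11 counts in a mouse, and 5 mice per group leave intervals that allow changes of up to 1.59 on the log2 scale for Ccr2.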
